A study of Macaca mulatta with 4 samples.

Results

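The potassium channel genes described here are the rows of a prefrontal cortex RNA-seq count table whose symbol begins with KCN, without the two-pore KCNK genes and without antisense names, and 78 of the 33618 rows met that rule. The rule uses the symbol and no measured value, although the gene group itself was picked with earlier results of these data known. The 78 include the voltage-gated families (KCNA, KCNB, KCNC, KCND, KCNQ, KCNH), the modulatory subunits KCNF, KCNG, KCNS and KCNV, the inward rectifiers (KCNJ), the calcium- and sodium-activated channels (KCNMA, KCNN, KCNT, KCNU) with the KCNMB subunits, and the auxiliary proteins KCNAB, KCNE, KCNIP and KCNRG. RNA came from wild-type rhesus macaques (Macaca mulatta) in 2 groups of 2 libraries. The sevoflurane group breathed this inhaled general anaesthetic at about 2.5 to 3% for 4 hours on each of 3 occasions, the first around postnatal day 7 and the others 14 and 28 days later, and the cortex was removed at the end of the last exposure. The control group has no agent in its label, and the sources used here do not describe how the controls were handled. Replicates carry the numbers 2 and 3 in both groups. Nothing in the labels states that they were separate animals, so the p-values measure the spread between these libraries, which may be technical.

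Potassium channels let potassium leave or enter cells along its gradient and thereby set the resting potential, end the action potential and limit repetitive firing. Voltage-gated (Kv) channels are built of 4 pore subunits that open on depolarisation, inward rectifiers (Kir) pass current most easily near rest, and calcium- or sodium-activated channels open when those ions enter the cell. In cortex, most Kv and Kir genes are used by neurons, whereas the Kir channel encoded by KCNJ10 is known for clearing potassium through astrocytes and oligodendrocytes.

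Total counts ran from 7793757 (control replicate 3) to 11706115 (sevoflurane replicate 3) per library, and the 78 genes together took 0.602% to 0.650% of them. Control replicate 3, the shallowest library, lay apart from the others on the first principal component of all tested genes (a score of 59.6, against -3.12 in control replicate 2 and -32.0 and -24.4 in sevoflurane replicates 2 and 3), so values without it are given for some of the genes it moved. Neuron markers (RBFOX3, SNAP25, SYT1, STMN2, MAP2, NEFL) and markers of forebrain excitatory neurons (SLC17A7, TBR1, CAMK2A, NRGN) were detected in every library. Summed over 8 mature oligodendrocyte markers, levels were 9144 and 14475 CPM in controls and 2384 and 3563 CPM after sevoflurane, and the adjusted p of all 8 passed the threshold of 0.05. In bulk tissue, fewer cells of a type and less RNA per cell cannot be told apart.

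Of the 78 genes, 66 passed the filter on low counts and were tested, and edgeR's quasi-likelihood test called 0 of them higher and 0 lower after sevoflurane. A call needs a p below 0.05 after Benjamini-Hochberg adjustment across the 17693 genes of the whole table that were tested. Of those, 0.599% were called, 0.0622% higher and 0.537% lower. At an unadjusted p under 0.05 there were 9 of the 66 (13.6%), 4 with higher and 5 with lower values, against 9.92% of all tested genes (4.35% higher and 5.57% lower). The median log2 fold change of the 66 was 0.02, and that of all tested genes was -0.0021. Values were positive for 35 genes and negative for 31. In 26 genes (39.4%) both libraries of one group lay outside the range of the other, 16 with sevoflurane above and 10 with sevoflurane below, and the same arrangement held for 41.2% of all tested genes (20.8% above and 20.4% below). These shares of the potassium channel genes are near the background. They include KCNJ13 on the higher side, which passed the filter on low counts through its sevoflurane libraries alone. The 3 smallest adjusted p-values belonged to the inward rectifiers KCNJ12, KCNJ10 and KCNJ2. DESeq2 called KCNJ12 higher and KCNJ2 and KCNJ10 lower, where it called 1.58% of all tested genes, and limma-voom, which called 0.622% of all tested genes, called 0 of the 66. By edgeR without control replicate 2, the log2 fold changes were -0.88 for KCNJ2 and -0.78 for KCNJ10, and without control replicate 3 they were -0.61 and -0.44. By edgeR without sevoflurane replicate 2, that of KCNJ12 was 1.22, and without sevoflurane replicate 3 it was 0.91. Without control replicate 3 the median of the 69 genes then tested was 0.13.

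**Figure D1:**
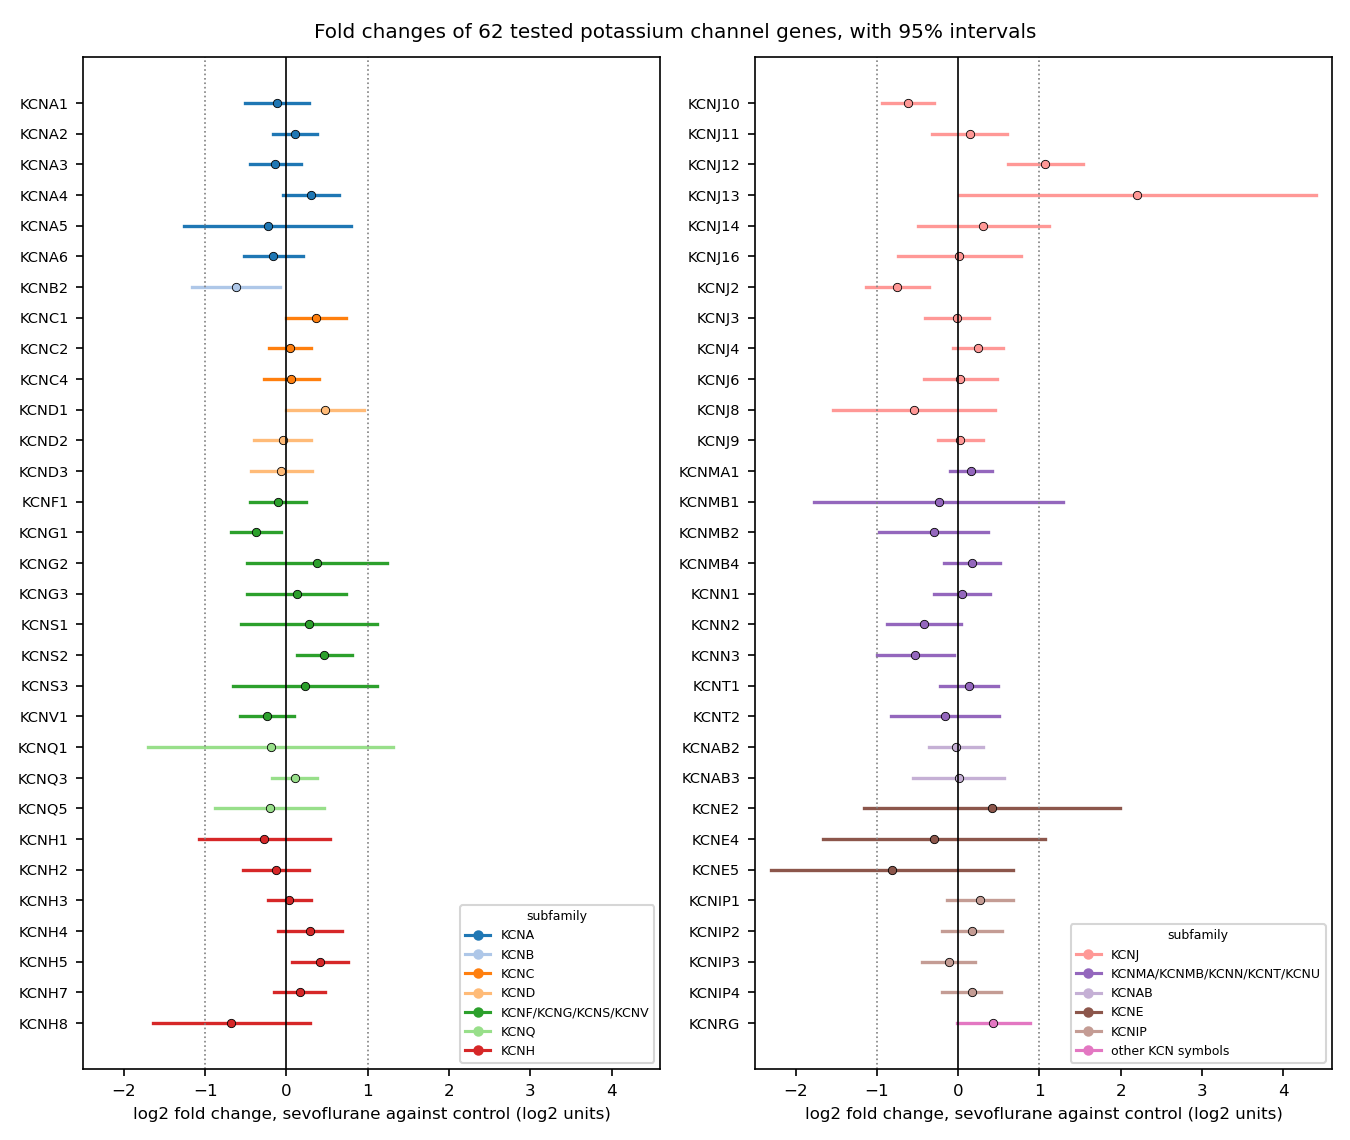
Log2 fold change (dot) and 95% interval (bar) of 62 of the 66 tested genes, coloured by subfamily, with dotted lines at a 2-fold difference. Most intervals span 0 and lie inside the dotted lines, and KCNJ12, KCNJ2 and KCNJ10 lie farthest from 0 relative to their intervals.

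The inward rectifiers held the 3 smallest p-values, KCNJ12 and KCNJ2 of the Kir2 branch and KCNJ10. KCNJ12, which encodes the strong rectifier Kir2.2, had 15.9 and 14.6 CPM in controls and 28.6 and 35.6 CPM after sevoflurane, in each case replicate 2 before replicate 3 (CPM, read counts scaled to a common library size with TMM factors). Both sevoflurane libraries were well above both controls, and the control pair differed little. Its log2 fold change was 1.07 (adjusted p = 0.0610, SE 0.20), with a 95% interval of 0.61 to 1.53 that lay above 0, and its adjusted p was just over the threshold. With DESeq2 the adjusted p was 0.00602 and with limma-voom 0.0719. Over all alternatives the adjusted p ran from 0.000625 to 0.207, and leaving out 1 library gave log2 fold changes of 0.91 to 1.22. The smallest of these adjusted p-values came from the fit with the replicate number as a block, which the labels give no reason to use. KCNJ12 has near-identical relatives in the human genome. No such relative has a KCN symbol in the macaque RefSeq names used here, and unnamed copies were not searched for. The sources used here do not say how reads with several matches were counted, so its counts are uncertain.

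KCNJ2, which encodes Kir2.1, the best known of the strong rectifiers, had 42.6 and 51.3 CPM in controls and 28.4 and 27.3 CPM after sevoflurane. Here both sevoflurane libraries were below both controls. The log2 fold change was -0.75 (adjusted p = 0.128, SE 0.17), with an interval of -1.14 to -0.36. With DESeq2 the adjusted p was 0.0470. It was 0.0473 by edgeR without control replicate 2 (log2 fold change -0.88), and without control replicate 3 the log2 fold change was -0.61. Adjusted p over all alternatives ran from 0.0126 to 0.419. Glial marker sums were lower in the sevoflurane libraries too. For 6 oligodendrocyte precursor markers they were 513 and 585 CPM in controls and 318 and 348 CPM after sevoflurane. For 6 microglia markers they were 330.1 and 289 CPM in controls and 206 and 242 CPM after sevoflurane. A large part of the microglia difference was CX3CR1, with 95.5 and 89.6 CPM in controls and 44.3 and 46.1 CPM after sevoflurane. CX3CR1 alone of that list was called lower (log2 fold change -1.03, adjusted p = 0.0200, SE 0.14). C1QA of the same list had a positive value (log2 fold change 0.66, adjusted p = 0.331, SE 0.22). The part of these cells in the KCNJ2 value was not tested. Since KCNJ12 and KCNJ2 differ in opposite directions, their count ratio within a library, in which depth and scaling cancel, separates the groups: KCNJ12 counts per KCNJ2 count were 0.373 and 0.284 in controls and 1.01 and 1.30 after sevoflurane. That ratio was chosen after its values were seen, and an exact permutation test of 2 libraries against 2 cannot give a two-sided p below 0.333. The remaining strong rectifiers of this branch were KCNJ4 (Kir2.3), with 81.4 and 84.7 CPM in controls and 104 and 92.2 CPM after sevoflurane and a log2 difference of 0.24 (adjusted p = 0.637, SE 0.14), and KCNJ14 (Kir2.4), with a log2 fold change of 0.31 (SE 0.36). For both, the sevoflurane libraries lay above the controls, and neither was called.

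KCNJ10 encodes Kir4.1, the glial channel that takes up potassium released by firing neurons. It had 207 and 261 CPM in controls and 148 and 156 CPM after sevoflurane, so both sevoflurane libraries were below both controls and control replicate 3 was the highest. The log2 fold change was -0.62 (adjusted p = 0.128, SE 0.14), with an interval of -0.94 to -0.30, which does not reach a 2-fold lower level. With DESeq2 the adjusted p was 0.0142. Without control replicate 2 the value was -0.78 (adjusted p = 0.0126), and without control replicate 3 it was -0.44 (adjusted p = 0.120). Adjusted p over all alternatives ran from 0.0101 to 0.520. The smallest of these came from the fit with the replicate number as a block, which the labels give no reason to use. Glial markers were lower in the sevoflurane libraries too. All 8 oligodendrocyte markers were called lower (median -1.87), as were SOX10 and OLIG2 of 6 precursor markers (median -0.96). The other precursor markers were not called. Their log2 fold changes were -0.14 for PDGFRA, -0.55 for CSPG4, -0.74 for PTPRZ1 and -1.26 for OLIG1, so the precursor list was not lowered evenly. Of 7 astrocyte markers GFAP was called lower, and their summed level was 9592 and 7788 CPM in controls and 5695 and 5799 CPM after sevoflurane. GFAP carried nearly all of that difference: without it, a choice made after seeing the values, the sums were 4343 and 3912 CPM in controls and 4164 and 3900.4 CPM after sevoflurane, which overlap. SLC1A2, SLC1A3 and ALDH1L1 had positive values. GJA1 (log2 fold change -0.40) and SLC4A4 (-0.17) had negative values, as did AQP4, and none of these was called. No oligodendrocyte, precursor or astrocyte marker was at 0. AQP4, the water channel that lies beside Kir4.1 on astrocyte endfeet, had a log2 fold change of -0.49 (adjusted p = 0.367, SE 0.18), and the astrocyte glutamate transporter SLC1A2 had a log2 fold change of 0.06 (adjusted p = 0.927, SE 0.11). The part of these cells in the KCNJ10 value was not tested. KCNJ16 encodes Kir5.1, which joins Kir4.1 in mixed channels. Its levels were 11.5 and 7.29 CPM in controls and 7.35 and 11.8 CPM after sevoflurane, which overlap, and its log2 fold change was 0.01 (SE 0.33, interval -0.74 to 0.77).

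**Figure D2:**
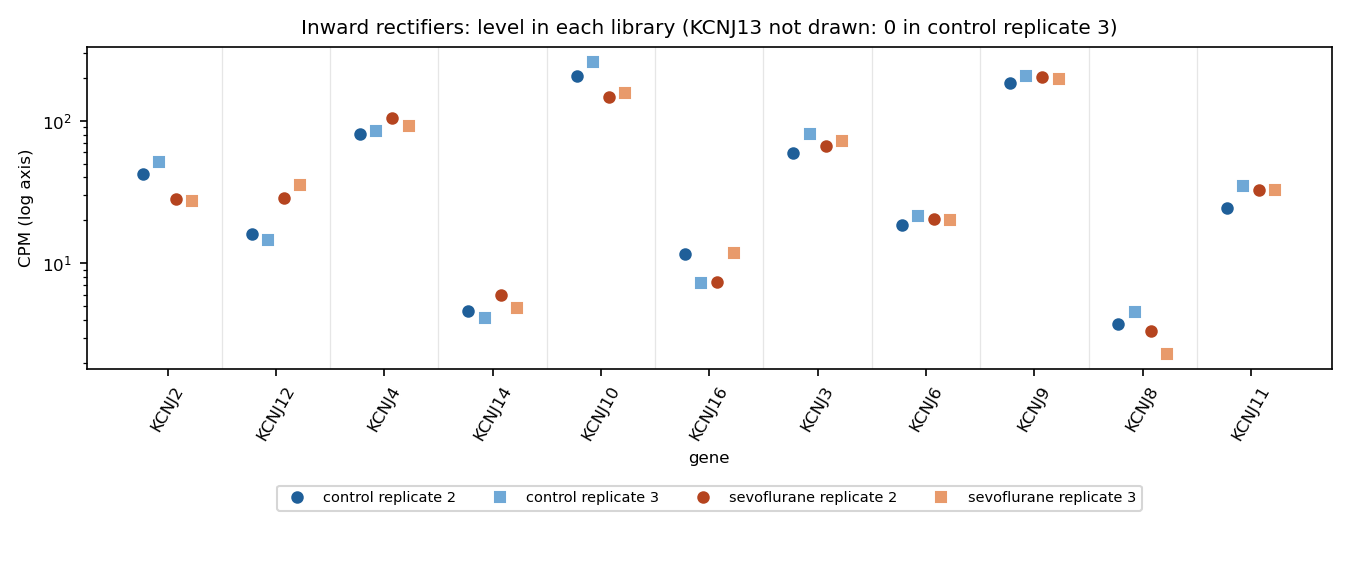
Level of 11 inward rectifier genes in each library, in CPM on a log axis, with controls in blue and sevoflurane in orange. The sevoflurane libraries lie above both controls for KCNJ12 and below both for KCNJ2 and KCNJ10, and the libraries of KCNJ3, KCNJ6, KCNJ9, KCNJ11 and KCNJ16 overlap; levels are not scaled for gene length, so heights are not comparable between genes.

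**Figure D3:**
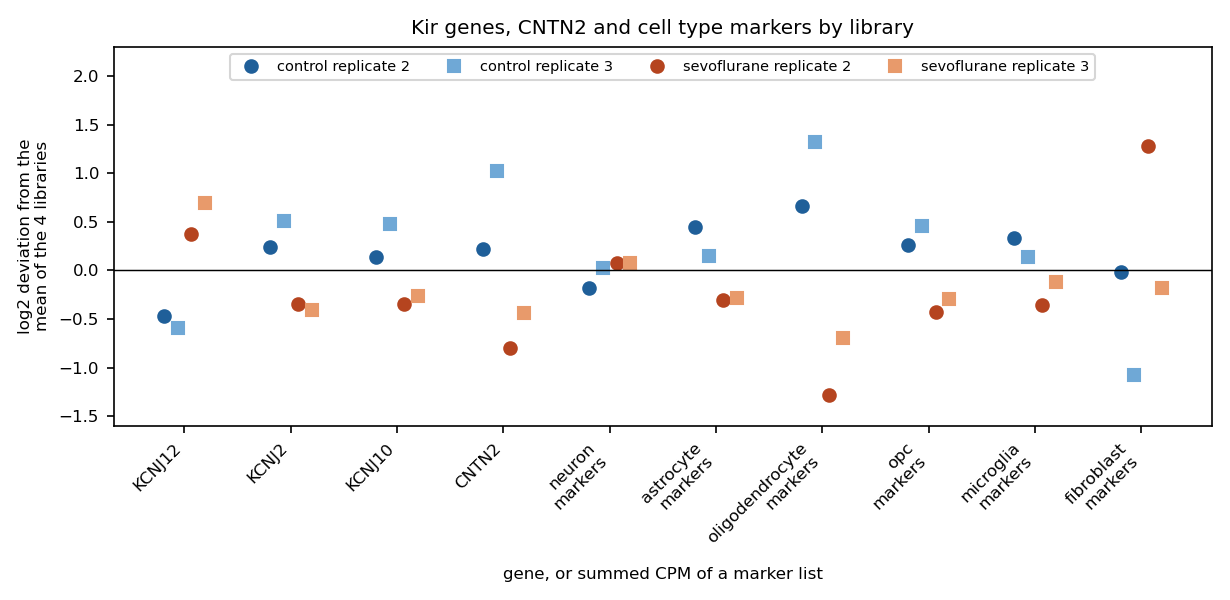
Log2 deviation of each library from the mean of the 4 libraries, for KCNJ12, KCNJ2, KCNJ10, the Kv1 partner gene CNTN2 and the summed CPM of 6 marker lists. KCNJ2, KCNJ10, CNTN2 and the glial lists are above 0 in both controls and below 0 in both sevoflurane libraries, KCNJ12 is the reverse, and the fibroblast markers differ most between control replicate 3 and sevoflurane replicate 2.

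G-protein-gated rectifiers, through which GABA-B, opioid and muscarinic receptors slow firing, had group differences near 0. KCNJ3 (GIRK1) had 59.3 and 81.4 CPM in controls and 67.0 and 72.1 CPM after sevoflurane. KCNJ6 (GIRK2) had 18.4 and 21.5 CPM in controls and 20.3 and 20.2 CPM after sevoflurane, and KCNJ9 (GIRK3) had 185 and 208 CPM in controls and 204 and 196 CPM after sevoflurane. Log2 fold changes were -0.01 (interval -0.41 to 0.38), 0.02 (-0.43 to 0.47) and 0.03 (-0.25 to 0.31), so differences of 1.5-fold or more lie outside all 3 intervals. The groups overlapped for each of them. The pore subunits of ATP-sensitive channels, which open when cellular ATP falls, were KCNJ11 (Kir6.2), with a log2 fold change of 0.15 (SE 0.20), and KCNJ8 (Kir6.1), known from pericytes. KCNJ8 had 3.71 and 4.51 CPM in controls and 3.33 and 2.29 CPM after sevoflurane, from 27 to 39 counts a library, and a log2 fold change of -0.54 (adjusted p = 0.769, SE 0.44). Their sulphonylurea receptor partners ABCC8 and ABCC9 had log2 fold changes of -0.01 (SE 0.22) and -0.12 (SE 0.20).

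KCNJ13, the Kir7.1 gene known from choroid plexus and retinal pigment epithelium, had 9 and 0 counts in controls and 37 and 16 counts after sevoflurane. The sevoflurane libraries were above the controls at a depth of few reads. KCNJ13 passed the filter on low counts through those libraries alone, so neither this arrangement nor its test supports a difference. The log2 fold change of 2.21 (SE 0.97, adjusted p = 0.4999) had an interval of 0.01 to 4.40. Leaving out control replicate 3 gave 1.35, and without sevoflurane replicate 2 it was 1.503. Without control replicate 2, whose removal leaves a control group at 0, the fitted value is no measure of size. Summed choroid plexus markers were 19.2 and 27.1 CPM in controls and 12.4 and 14.0 CPM after sevoflurane, with OTX2 at 0 in every library. AQP1 carried that difference, and without it, a choice made after seeing the values, the sums were 4.78 and 7.03 CPM in controls and 8.37 and 6.70 CPM after sevoflurane, which overlap. TTR, at most 1.71 CPM, had a log2 fold change of 0.68 (SE 1.24) and CLIC6 of 0.33 (SE 0.40). Summed fibroblast markers were 212 and 102 CPM in controls and 521 and 189.6 CPM after sevoflurane, where sevoflurane replicate 2 was highest as it was for KCNJ13. The part of these cells was not tested.

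The Kv1 subunits sit along axons and at their initial segments and set the threshold and width of the action potential. None of the 6 tested members was called, and the median log2 fold change was -0.12, which became 0.16 without control replicate 3. KCNA1 (Kv1.1) had 132 and 189 CPM in controls and 139.7 and 157 CPM after sevoflurane, with control replicate 3 highest. Its log2 fold change was -0.11 (adjusted p = 0.901, SE 0.17), and it was 0.16 without that library. KCNA2 (Kv1.2), the partner of Kv1.1 beside the nodes of myelinated axons, had 331 and 358 CPM in controls and 391 and 352 CPM after sevoflurane, a log2 difference of 0.11 (adjusted p = 0.848, SE 0.12). KCNA4 (Kv1.4), an inactivating A-type subunit, had 69.7 and 68.0 CPM in controls and 94.1 and 75.9 CPM after sevoflurane, and was the one Kv1 gene whose groups did not overlap (log2 fold change 0.30, adjusted p = 0.580, SE 0.15). KCNA6 (Kv1.6) had 165 and 204 CPM in controls and 187 and 144 CPM after sevoflurane, which overlap (log2 fold change -0.16, adjusted p = 0.829, SE 0.16). KCNA3 (Kv1.3) had a log2 fold change of -0.14 (SE 0.14). KCNA5 (Kv1.5), best known in the heart, had a log2 fold change of -0.23 (SE 0.46) from 29 to 44 counts a library.

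Among the cytoplasmic proteins that act on Kv1 channels, the beta subunit gene KCNAB2 had 269 and 355 CPM in controls and 308 and 304 CPM after sevoflurane (log2 fold change -0.03, adjusted p = 0.971, SE 0.15). KCNAB3 had 13.6 and 13.4 CPM in controls and 15.7 and 11.4 CPM after sevoflurane (log2 fold change 0.01, SE 0.25). KCNRG, a soluble protein that hinders Kv assembly in human cells, had 19.1 and 16.8 CPM in controls and 22.7 and 26.0 CPM after sevoflurane and a log2 fold change of 0.43 (adjusted p = 0.530, SE 0.20), and its sevoflurane libraries were both above the controls. KCNAB1 had 2 counts over all 4 libraries. ANK3, the ankyrin that anchors channels at the axon initial segment, was listed at 0 in all 4 libraries, and VAPA had 7 counts in all, so a symbol listed near 0 in this table need not mean that the gene is unused.

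Of 26 partner proteins outside the KCN symbols, 22 were tested, with 0 called by edgeR and a median log2 fold change of 0.08 (3 had an unadjusted p under 0.05, 2 of them with higher and 1 with lower values). DESeq2 and limma-voom called 0 of these 22. CNTN2, the adhesion molecule contactin 2 that holds Kv1 channels beside the node, is known from neurons and oligodendrocytes. It had 304 and 532 CPM in controls and 151 and 193 CPM after sevoflurane, with both sevoflurane libraries below both controls. Its log2 fold change was -1.28 (adjusted p = 0.0549, SE 0.24). With 1 library left out, which leaves a single library in a group, its log2 fold change ran from -0.82 without control replicate 3 to -1.63 without control replicate 2. The adjusted p of CNTN2 over all alternatives ran from 1.90e-11 to 0.114. The smallest came from the fit with the replicate number as a block, although nothing in the labels says that these numbers pair the libraries. That fit called 170 of all tested genes higher and 341 lower, against 11 and 95 in the main fit, so this value is no measure of the strength of evidence. CNTNAP2, its axonal partner Caspr2, had 347 and 329 CPM in controls and 425 and 405 CPM after sevoflurane (log2 fold change 0.30, adjusted p = 0.414, SE 0.11), so these members of the same complex had opposite signs. Whether the 2 differences differ was not tested. LGI1, ADAM22 and ADAM23, a secreted Kv1 modulator and its receptors, had log2 fold changes of 0.09 (SE 0.19), 0.17 (SE 0.11) and -0.06 (SE 0.25). The oligodendrocyte marker sums given above were also lower in the sevoflurane libraries, and their part in the CNTN2 value was not tested.

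**Figure D4:**
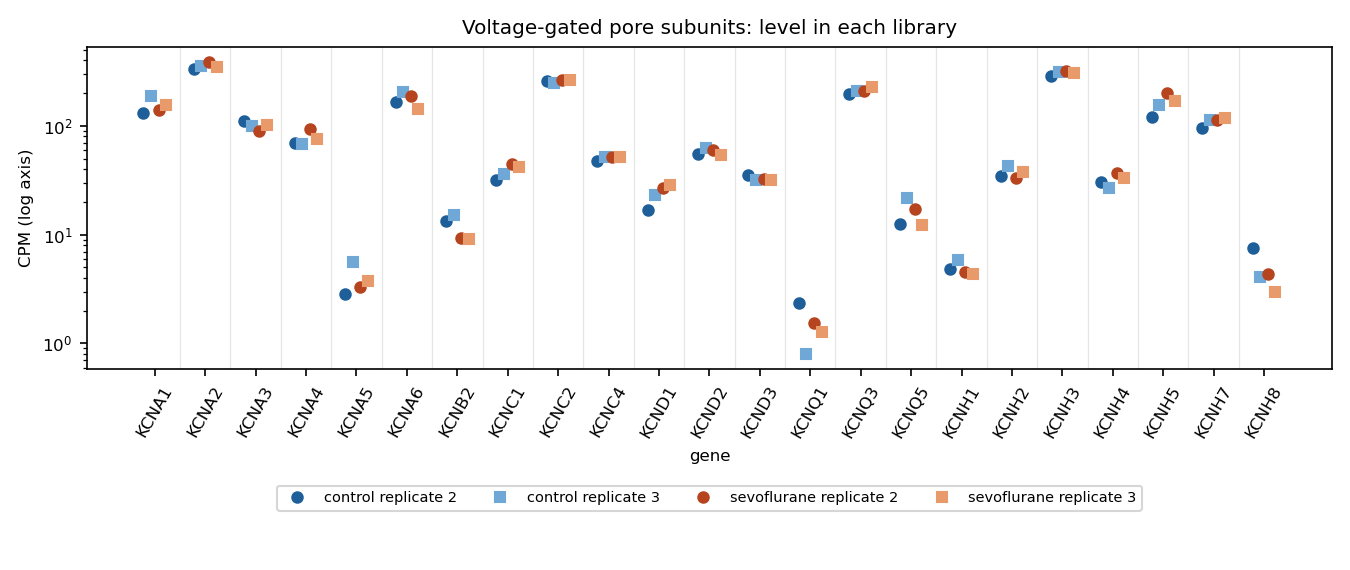
Level of 23 tested voltage-gated pore subunit genes in each library, in CPM on a log axis, with controls in blue and sevoflurane in orange. Libraries of the 2 groups lie close together for most genes, such as KCNC2 at 249 to 264 CPM, while KCNB2 is lower and KCNC1 and KCND1 higher in both sevoflurane libraries; heights are not comparable between genes.

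Kv2 channels carry the slow delayed rectifier current of the soma and proximal dendrites, and none was called. KCNB2 (Kv2.2) had 13.4 and 15.1 CPM in controls and 9.40 and 9.08 CPM after sevoflurane, with a log2 fold change of -0.62 (adjusted p = 0.416, SE 0.24). Both sevoflurane libraries were below the controls. AMIGO1, an adhesion protein bound to Kv2 channels, lay the other way, with 84.3 and 92.3 CPM in controls and 112 and 118 CPM after sevoflurane (log2 fold change 0.39, adjusted p = 0.347, SE 0.13). VAPB, which ties clusters of Kv2 channels to the endoplasmic reticulum, had a log2 fold change of 0.26 (SE 0.12).

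The modulatory subunits carry no current alone and join Kv2 subunits to change their gating. Of 8 tested, 5 had positive and 3 negative values (median 0.18). That median moved with 1 library left out, and it was -0.090 without control replicate 2, 0.053 without control replicate 3 and -0.026 without sevoflurane replicate 3. KCNS2 (Kv9.2) had 85.9 and 68.7 CPM in controls and 110.2 and 104 CPM after sevoflurane, both sevoflurane libraries above both controls, with a log2 fold change of 0.47 (adjusted p = 0.308, SE 0.15). KCNG1 (Kv6.1) had 129.7 and 134 CPM in controls and 109 and 93.6 CPM after sevoflurane, the reverse arrangement, with a log2 fold change of -0.38 (adjusted p = 0.371, SE 0.14). KCNV1 (Kv8.1) was similar in direction to KCNG1, with 226 and 240.3 CPM in controls and 224 and 172 CPM after sevoflurane (log2 fold change -0.23, adjusted p = 0.674, SE 0.15). KCNS3 (Kv9.3), known from parvalbumin interneurons, had 4.59 and 3.18 CPM in controls and 4.36 and 4.84 CPM after sevoflurane, from 24 to 57 counts a library, and overlapped (log2 fold change 0.23, SE 0.39, and 0.0026 without control replicate 3). KCNF1 (Kv5.1) had a log2 fold change of -0.10 (SE 0.15), KCNG2 had 0.38 (SE 0.38) and KCNG3 had 0.13 (SE 0.27). KCNS1 (Kv9.1) had 8.98 and 23.1 CPM in controls and 17.8 and 20.6 CPM after sevoflurane, where the control pair spanned both sevoflurane values (log2 fold change 0.28, SE 0.37, and 1.09 without control replicate 3).

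Kv3 channels close quickly and let neurons, fast-spiking interneurons above all, fire at high rates. KCNC1 (Kv3.1) had 31.5 and 36.1 CPM in controls and 44.6 and 42.3 CPM after sevoflurane, and the sevoflurane libraries were above the controls, with a log2 fold change of 0.37 (adjusted p = 0.523, SE 0.17). KCNC2 (Kv3.2) had 260.1 and 249 CPM in controls and 264 and 262 CPM after sevoflurane, a log2 difference of 0.05 (adjusted p = 0.942, SE 0.11) with an interval of -0.21 to 0.31. KCNC4 (Kv3.4) had a log2 fold change of 0.06 (SE 0.15). Over the same libraries PVALB, the marker of fast-spiking interneurons, had 3.32 and 5.57 CPM in controls and 7.69 and 4.07 CPM after sevoflurane (log2 fold change 0.42, adjusted p = 0.834, SE 0.44).

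Kv4 channels give the A-type current that damps signals in dendrites, and they assemble with the calcium-binding KCNIP proteins and the membrane proteins DPP6 and DPP10. KCND2 (Kv4.2) had 54.6 and 63.1 CPM in controls and 59.8 and 54.3 CPM after sevoflurane and a log2 fold change of -0.04 (adjusted p = 0.959, SE 0.16). KCND3 (Kv4.3) had 35.1 and 32.0 CPM in controls and 32.6 and 31.7 CPM after sevoflurane (log2 fold change -0.06, adjusted p = 0.948, SE 0.17). KCND1 (Kv4.1) had 16.9 and 23.2 CPM in controls and 27.1 and 28.4 CPM after sevoflurane, the sevoflurane pair above the controls, with a log2 fold change of 0.48 (adjusted p = 0.506, SE 0.21), or 0.72 without control replicate 3. Among the partners, KCNIP1 had 31.1 and 32.9 CPM in controls and 34.3 and 42.7 CPM after sevoflurane (log2 fold change 0.27, adjusted p = 0.701, SE 0.18). KCNIP2 had 85.6 and 64.6 CPM in controls and 87.8 and 82.0 CPM after sevoflurane and overlapped (log2 fold change 0.17, SE 0.16). KCNIP4 had a log2 fold change of 0.17 (SE 0.16). KCNIP3, also known as the transcriptional repressor DREAM, had a log2 fold change of -0.11 (SE 0.14). DPP6 and DPP10 had log2 fold changes of 0.12 (SE 0.11) and 0.29 (SE 0.14), and in both the sevoflurane libraries were above the controls.

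Kv7 channels carry the M current, a brake on repetitive firing that muscarinic receptors release. KCNQ3 (Kv7.3) had 196 and 210.4 CPM in controls and 209 and 226 CPM after sevoflurane, and the groups overlapped. Its log2 fold change was 0.10 (interval -0.17 to 0.38), with adjusted p = 0.859. KCNQ5 (Kv7.5) had 12.6 and 21.7 CPM in controls and 17.2 and 12.4 CPM after sevoflurane (log2 fold change -0.21, adjusted p = 0.894, SE 0.30), and was 0.23 without control replicate 3. KCNQ1, the cardiac and epithelial member, had a log2 fold change of -0.19 (SE 0.67) from 6 to 24 counts a library. The single-pass KCNE subunits modify Kv7 and ERG channels, and the 3 that were tested had from 60 to 103 counts each over the 4 libraries. KCNE2 had 0.683 and 1.86 CPM in controls and 1.20 and 2.12 CPM after sevoflurane (log2 fold change 0.42, and 1.27 without control replicate 3), and KCNE4 had 1.66 and 1.59 CPM in controls and 1.62 and 1.02 CPM after sevoflurane (log2 fold change -0.30). KCNE5 had 1.37 and 5.70 CPM in controls and 2.05 and 1.87 CPM after sevoflurane, with control replicate 3 highest, and its log2 fold change of -0.82 was 0.52 without that library. All 3 overlapped, and their standard errors of 0.61 to 0.70 leave more than a 2-fold difference in either direction inside the intervals of KCNE2 and KCNE4.

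The KCNH genes encode the EAG, ERG and ELK channels, which act at or below the firing threshold. KCNH5 (EAG2) had 122 and 156 CPM in controls and 199.9 and 171 CPM after sevoflurane, both sevoflurane libraries above both controls, and a log2 fold change of 0.41 (adjusted p = 0.401, SE 0.15). Leaving out control replicate 3 gave 0.60, and leaving out control replicate 2 gave 0.24. KCNH1 (EAG1) had 4.88 and 5.83 CPM in controls and 4.53 and 4.33 CPM after sevoflurane, from 44 to 53 counts a library (log2 fold change -0.27, adjusted p = 0.880, SE 0.36). In the ERG group, KCNH2, also the gene of the cardiac repolarising current, had a log2 fold change of -0.13 (SE 0.18), and KCNH7 had 94.9 and 113 CPM in controls and 114 and 119 CPM after sevoflurane (log2 fold change 0.16, adjusted p = 0.783, SE 0.14, and 0.30 without control replicate 3). In the ELK group, KCNH3 had a log2 fold change of 0.04 (SE 0.12), KCNH4 had 30.3 and 26.9 CPM in controls and 37.0 and 33.0 CPM after sevoflurane (log2 fold change 0.29, adjusted p = 0.668, SE 0.18), and KCNH8 had a log2 fold change of -0.68 (SE 0.43, and -1.04 without control replicate 3).

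KCNMA1, the pore of the large-conductance BK channel that calcium and voltage open together, had 491 and 532 CPM in controls and 589 and 554 CPM after sevoflurane. The sevoflurane libraries were above the controls by a log2 fold change of 0.16 (adjusted p = 0.726, SE 0.11), with an interval of -0.10 to 0.41. KCNMB4, its neuronal beta subunit, had a log2 fold change of 0.17 (SE 0.15), KCNMB2 had a log2 fold change of -0.30 (SE 0.30, and -0.0003 without control replicate 3), and KCNMB1, the smooth muscle subunit, had a log2 fold change of -0.24 (SE 0.68, and -0.84 without control replicate 3). Small-conductance SK channels carry part of the afterhyperpolarisation that follows an action potential. KCNN1 (SK1) had 81.6 and 98.5 CPM in controls and 86.9 and 99.5 CPM after sevoflurane and overlapped (log2 fold change 0.05, SE 0.15). KCNN2 (SK2) had 22.9 and 20.6 CPM in controls and 15.6 and 16.8 CPM after sevoflurane (log2 fold change -0.42, adjusted p = 0.551, SE 0.20), and KCNN3 (SK3) had 31.1 and 25.2 CPM in controls and 17.4 and 21.7 CPM after sevoflurane (log2 fold change -0.53, adjusted p = 0.440, SE 0.21). For SK2 and SK3 the sevoflurane libraries lay below the controls. KCNT1 (Slack), a sodium-activated channel, had 65.1 and 83.7 CPM in controls and 84.4 and 78.5 CPM after sevoflurane (log2 fold change 0.13, adjusted p = 0.861, SE 0.16), and KCNT2 (Slick) had a log2 fold change of -0.16 (SE 0.30).

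The spread within the control group was as large as most of these differences. The 2 controls differed by more than the group difference in 40 of the 66 genes (60.6%), and in 58.4% of all tested genes (pair differences on log2 CPM with 0.5 added). The median difference within the control pair was 0.27 on the log2 scale, within the sevoflurane pair 0.16, and the median size of the group difference was 0.20. KCNE5, KCNJ13, KCNMB1, KCNS1 and KCNQ1 differed at least 2-fold between the controls. KCNJ12, KCNJ2, KCNJ10 and KCNB2 were among those with a group difference above the control difference. A 2-fold difference lay outside the 95% interval in 48 of the 66 genes (72.7%; 62.4% of all tested genes), and a 1.5-fold difference in 30. Of the other 18 genes, 13 had fewer than 400 counts over the 4 libraries, and there the depth limits what can be seen.

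**Figure D5:**
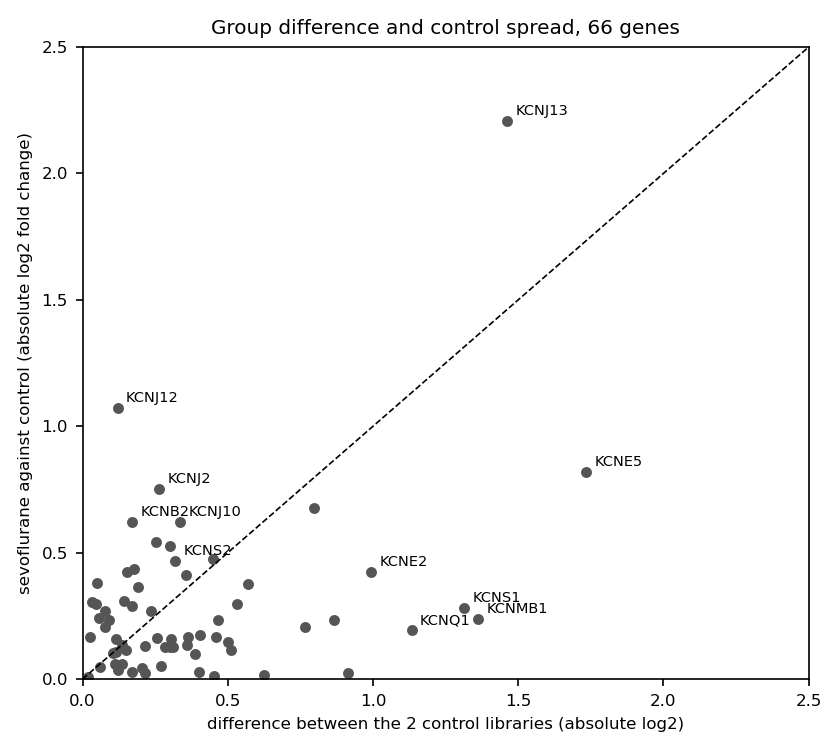
Absolute log2 fold change between the groups against the absolute log2 difference between the 2 control libraries, 1 point for each of the 66 tested genes; the dashed line marks equality. Of the points, 40 lie below the line, and KCNJ12, at 1.07 with a control difference of 0.12, lies far above it.

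Of the 78 genes, 12 did not pass the filter. KCNA10, KCNU1 and KCNV2 had 0 counts in all 4 libraries. KCNAB1 had 2 counts, KCNJ15 had 1, KCNMB3 had 8, KCNJ5 (GIRK4) had 14, KCNA7 and KCNN4 had 17 each, KCNJ1 had 26, KCNH6 had 27 and KCNE3 had 28 counts over all libraries. Within these, KCNJ5 had 1 and 0 counts in controls against 8 and 5 after sevoflurane, and KCNMB3 had 1 and 7 counts against 0 and 0, all too few to compare. RefSeq's gene names for the T2T-MMU8v2.0 assembly give KCNE1 and KCNG4 as the genes behind rows listed by number, with 8 and 13 counts in controls and 23 and 8 after sevoflurane for KCNE1, and 1 and 0 against 3 and 11 for KCNG4. They lack a KCN symbol in the count table and are not among the 78.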

How the data were processed

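The authors deposited raw read counts per gene for each library. HISAT2 was the aligner, per the submitters' processing notes; the sources used here name no counting program, build, annotation or strand setting, so near-identical copies and overlapping genes are uncertain. No genome or sequence table was used; RefSeq names (T2T-MMU8v2.0) served to look up symbols, and all 78 potassium channel symbols matched.

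The test was edgeR 4.0.16 in R 4.3.3 (filterByExpr with 10 counts and 15 in total, TMM scaling, two-sided quasi-likelihood F test of group with no further term, Benjamini-Hochberg over 17693 tested of 33618 genes), after a check on simulated counts. Alternatives were DESeq2 1.42.0, limma-voom (limma 3.58.1), the likelihood ratio test, other scalings, filters and thresholds, the replicate number as a block, and leaving out each library. Total counts of 7793757 to 11706115 set the precision. The libraries of a replicate pair differed by more than counting noise, with chi-square of 12.0 and 6.52 per degree of freedom. That cannot tell separate animals from separate preparations of the same tissue.

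Members and lists were chosen with earlier results of these data known. Values are given for the 2 smallest p in each subfamily and a fixed set of 24 genes, and other members at least by fold change. Some genes are not reported here one by one; counts and medians include them. KCNJ2 was detailed after its values were seen.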

Additional observations from a re-analysis of the deposited data

How the results depend on the processing

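Of the 66 potassium channel genes, 1 was called higher and 2 lower by DESeq2, by edgeR's likelihood ratio test and with the replicate number as a block, in each case KCNJ12 against KCNJ2 and KCNJ10, and at an adjusted p under 0.1 edgeR called 1 higher and 0 lower. Leaving out 1 library gave 0 to 1 higher and 0 to 2 lower. The other scalings and filters and limma-voom called 0. Of the partner genes, CNTN2 alone was called lower with the stricter filter (a mean of 5 CPM, and 1 CPM in at least 2 libraries). Among the fits that kept all 4 libraries, the same held for the likelihood ratio test, the replicate block and an adjusted p under 0.1, so that the count was 1. With 1 library left out, the log2 fold change of CNTN2 ran from -1.63 to -0.82, and calls of partner genes in those fits are not counted here. The replicate numbers are not treated as pairs in the main fit because nothing in the labels says that they pair the libraries. The correlation of same-numbered libraries' deviations from their group means was 0.0090, a single value that cannot settle whether they do.

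Over all tested genes, 11 were called higher and 95 lower. The counts were 3 and 57 with no filter, 60 and 219 by DESeq2, 7 and 103 by limma-voom, 137 and 304 by the likelihood ratio test, 170 and 341 with the replicate block, and 33 and 170 at an adjusted p under 0.1. Leaving out 1 library gave 27 to 81 higher and 118 to 232 lower; the single library left in a group is then assumed to vary like the other group.

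The median log2 fold change of the potassium channel genes ranged from -0.033 to 0.13 with 1 library left out. For the partner genes that range was 0.059 to 0.14, and with no filter the median was 0.031.

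Signs changed in some alternatives, and not only for values near 0. Larger values that changed sign included KCNE5, at -0.82 in the main fit, and KCNE2, at 0.42. KCNAB3 was -0.015 by limma-voom and -0.00519 with the replicate block. KCNJ16 was -0.020 by limma-voom, and KCNJ3 was 0.00662 with library size alone and 0.016 by limma-voom. For 29 uncalled genes the sign changed with 1 library left out, and their log2 fold changes then ranged as follows: KCNA1 -0.35 to 0.16, KCNA5 -0.66 to 0.32, KCNA6 -0.36 to 0.017, KCNAB2 -0.22 to 0.18, KCNAB3 -0.25 to 0.22, KCND2 -0.15 to 0.061, KCND3 -0.13 to 0.0088, KCNE2 -0.16 to 1.27, KCNE5 -1.54 to 0.52, KCNF1 -0.28 to 0.10, KCNG2 -0.041 to 0.71, KCNG3 -0.012 to 0.29, KCNH2 -0.28 to 0.030, KCNH3 -0.025 to 0.0995, KCNIP2 -0.012 to 0.39, KCNIP3 -0.29 to 0.045, KCNJ11 -0.094 to 0.42, KCNJ16 -0.36 to 0.39, KCNJ3 -0.23 to 0.23, KCNJ6 -0.086 to 0.13, KCNJ9 -0.058 to 0.11, KCNMB1 -0.84 to 0.97, KCNMB4 -0.0066 to 0.36, KCNN1 -0.081 to 0.19, KCNQ1 -0.73 to 0.81, KCNQ5 -0.56 to 0.23, KCNS1 -0.27 to 1.09, KCNT1 -0.040 to 0.32 and KCNT2 -0.58 to 0.16. The signs of KCNJ12, KCNJ2, KCNJ10 and CNTN2 were the same in every alternative run. Why values moved was not tested. Counts limit precision most for the KCNE genes, KCNQ1, KCNMB1 and KCNJ13, with 60 to 103 counts over the 4 libraries.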
